A study of Mus musculus with 20 samples.

Results

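Alternatively activated macrophages are macrophages that have responded to the cytokines IL-4 and IL-13, and 9 genes commonly used to recognize them in mice were followed here: Arg1, Chi3l3, Chi3l1, Retnla, Il4ra, Mgl2, Ccl17, Ccl22 and Ccl24. The genes were chosen by name among the array's 34797 gene names, and no threshold on their values was used. Earlier results of these data were known at the choice, so the shares over all probes given below are a description and not a test of the set. RNA came from snap-frozen diaphragm tissue. All 20 mice were female C57Bl/6, injected into the pleural cavity at 8 weeks of age and killed 12 weeks later. The 4 mice of the control group received the vehicle, 0.5% BSA in saline. Short (SFA) and long (LFA) asbestos fibers, both amosite, were given to 4 mice each at 25 µg per mouse, the SFA having been ground from the same amosite. Short (NTS) and long (NTL) carbon nanotubes were given to 4 mice each at 5 µg per mouse, the NTS a commercial product and the NTL made in an academic laboratory. The asbestos and nanotube doses therefore differ, and each material was tested at 1 dose and 1 time. Every level below is a probe's log2 intensity minus that of the array's 75th percentile, so 1 unit is a 2-fold difference, and levels of different probes cannot be set against each other.

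When IL-4 or IL-13 binds a receptor that contains the IL-4 receptor α chain on a macrophage, the kinases attached to the receptor phosphorylate STAT6. STAT6 then dimerizes, enters the nucleus and binds pairs of TTC and GAA separated by a few bases. The genes switched on in this way encode an arginine-degrading enzyme, secreted chitinase-like and resistin-like proteins, sugar-binding receptors and chemokines that attract T helper 2 cells and eosinophils. In the pleural and peritoneal cavities this program is best known from worm infections and wound repair. Several of the same genes have other sources, among them hepatocytes for Arg1, neutrophils for Chi3l3 and dendritic cells for Ccl17 and Ccl22.

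The promoters are shown because the members share a regulator whose binding letters can be searched for. RefSeq (GRCm38.p6) gave the 250 bases before the start of 7 of the 9 genes, with Arg1 and Ccl24 named only. TTCNNNNGAA occurred in 5.85% and TTCNNNGAA in 7.02% of 32851 promoters of this length, each motif reading the same on both strands, and 1 or both occurred in 12.4%. Of the 7 members, 3 held a match (42.9%), drawn here in capitals, at 172 bases before the start for Chi3l3 (TTCTTAGAA), 145 for Retnla (TTCACAAGAA), and 154 and 99 for Ccl17 (TTCTCTGGAA and TTCTTTGAA). The windows of Chi3l1, Il4ra, Mgl2 and Ccl22 held neither string of letters. The 3 sequences lie at chr3:106167565-106167814 (minus strand), chr16:48842359-48842608 (plus strand) and chr8:94810203-94810452 (plus strand).
Chi3l3 promoter: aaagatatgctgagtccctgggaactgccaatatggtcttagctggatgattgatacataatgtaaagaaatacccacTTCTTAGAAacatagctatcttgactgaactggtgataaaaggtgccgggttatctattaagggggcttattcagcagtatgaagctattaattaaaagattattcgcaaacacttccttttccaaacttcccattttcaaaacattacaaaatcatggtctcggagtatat
Retnla promoter: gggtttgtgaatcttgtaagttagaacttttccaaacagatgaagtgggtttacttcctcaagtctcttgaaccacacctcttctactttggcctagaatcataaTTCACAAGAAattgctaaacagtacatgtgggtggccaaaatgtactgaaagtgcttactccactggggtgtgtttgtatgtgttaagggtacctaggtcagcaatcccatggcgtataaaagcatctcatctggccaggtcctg
Ccl17 promoter: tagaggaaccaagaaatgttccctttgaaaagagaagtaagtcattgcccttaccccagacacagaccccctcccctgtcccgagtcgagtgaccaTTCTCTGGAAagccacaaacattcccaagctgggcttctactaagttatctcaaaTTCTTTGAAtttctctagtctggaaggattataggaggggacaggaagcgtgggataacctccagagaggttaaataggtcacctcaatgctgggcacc

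The 60-base probes of Arg1, of Ccl24 and of the dimmer of the 2 Il4ra probes are shown because the first 2 stand for genes whose promoters were not given, and the third because it did not follow the other probe of its gene. In the array's own coordinates (NCBI37) they lie at chr10:24636194-24636253 (minus strand), chr5:136046667-136046726 (minus strand) and chr7:132712550-132712609 (plus strand). The brighter Il4ra probe lies at chr7:132722922-132722981, at base 5027 of the same transcript in which the dimmer probe starts at base 466.
Arg1 probe: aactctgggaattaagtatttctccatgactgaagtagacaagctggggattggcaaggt
Ccl24 probe: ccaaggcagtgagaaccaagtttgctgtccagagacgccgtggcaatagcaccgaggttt
Il4ra dimmer probe: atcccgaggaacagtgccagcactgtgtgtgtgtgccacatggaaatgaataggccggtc

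Members rose after long fibers, and none passed the test after short fibers. Of the 8 members bright enough to be tested (all but Ccl22), 3 rose in LFA against control (Chi3l1, Il4ra and Ccl17) and 5 rose in NTL (Arg1, Chi3l1, Il4ra, Ccl17 and Ccl24), at a limma adjusted p under 0.05 and at least 2-fold. By the same rule 2.21% of all 36920 tested probes rose in LFA and 1.75% fell, and 3.64% rose and 3.16% fell in NTL. In bulk tissue, a change in the number of cells of a type and a change in RNA per cell cannot be told apart. No member fell. None changed in SFA or NTS, where 0% of all probes passed. There 0 and 1 members had an unadjusted p under 0.05, beside 851 and 1299 of all 36920 tested probes. Their median log2 change was 1.25 in LFA, 1.29 in NTL, 0.11 in SFA and −0.06 in NTS, beside −0.28, −0.25, −0.11 and −0.06 over all tested probes. With quantile normalization the medians over all probes in LFA and NTL lay nearer 0, at −0.08 and −0.09, and those of the members were 1.33 and 1.54. The 4 comparisons share the control arrays and are not independent of each other. The F test over the 4 comparisons called 5 members (Chi3l3, Chi3l1, Il4ra, Ccl17 and Ccl24), where it called 5.89% of all probes.

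The 20 arrays had a 75th percentile of intensity between 292 and 991, with 53.0% to 68.1% of spots well above background and 0 saturated spots, and control replicate 2 was the dimmest. Correlations between arrays ran from 0.865 to 0.986. On 5 arrays, namely SFA 2, LFA 1, LFA 3, NTS 3 and NTS 4, the summed level of 9 liver genes, such as Alb (albumin), exceeded 1000 times the array's 75th percentile. It was between 5.48 and 484 on the other arrays. The changes of Arg1, and those of Chi3l1, Il4ra and Ccl17 in LFA, are given with and without the 5 liver-rich arrays. Most other values, including those of the gene lists, come from all 20 arrays only. Leaving them out keeps SFA 1, 3 and 4, LFA 2 and 4, and NTS 1 and 2 in those groups. The diaphragm's own genes were abundant on every array, with a summed level of 8 skeletal muscle genes of 3229 to 4854 in control, 1668 to 2302 in LFA and 1724 to 1979 in NTL. Lung epithelial genes summed to at most 0.383.

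**Figure D1:**
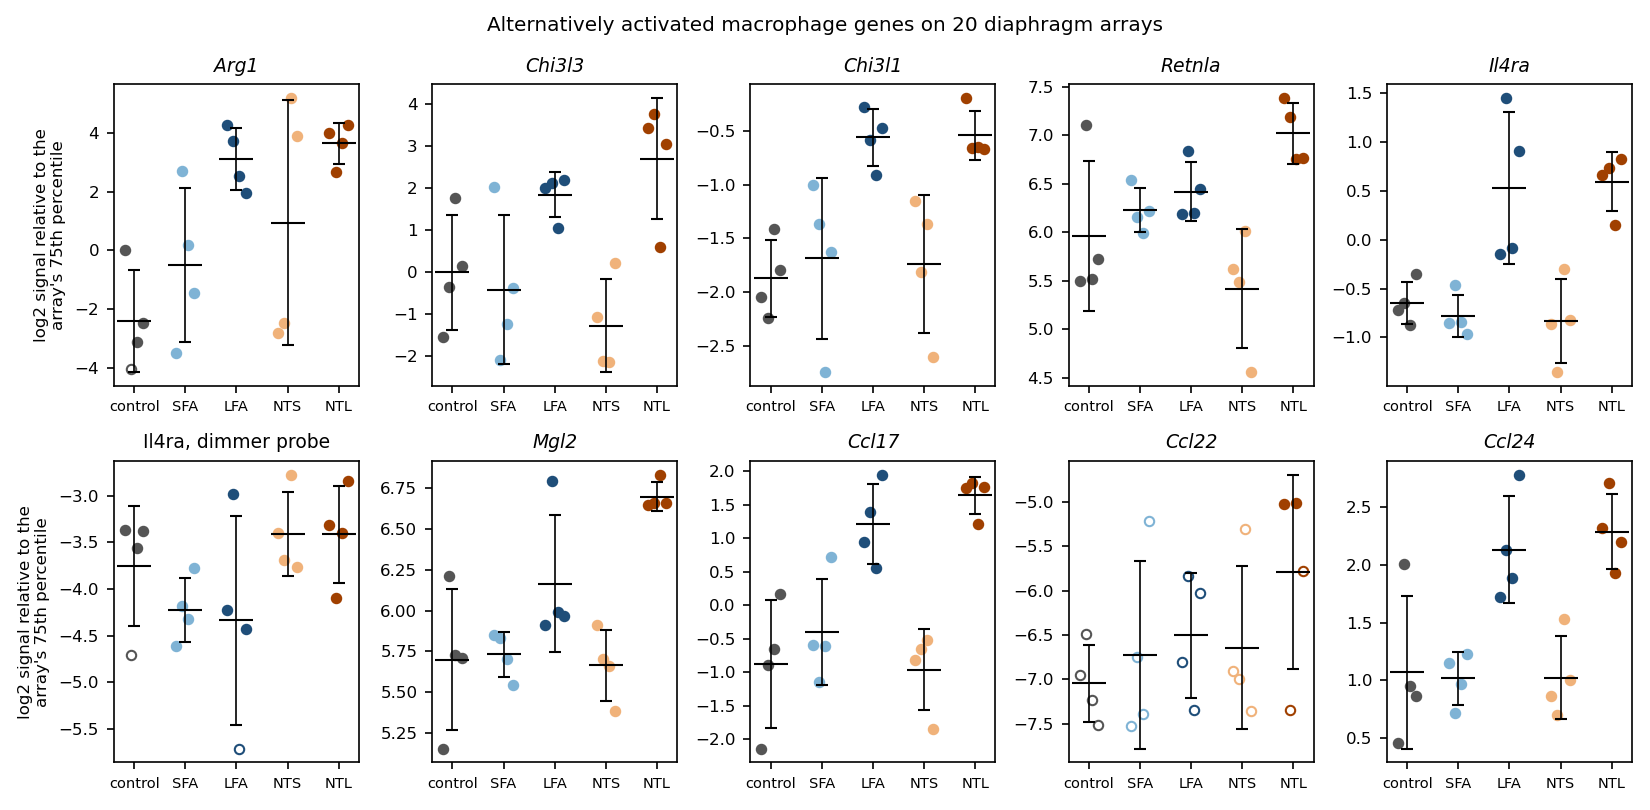
Level of each of the 9 genes on all 20 arrays, as log2 intensity relative to the 75th percentile of the array (vertical axis), by group (horizontal axis), with the dimmer Il4ra probe in a panel of its own. Each point is 1 mouse, open where the spot was not well above background, and the line with bars is the mean ± SD of 4 mice. Chi3l1 and the brighter Il4ra probe are higher on every LFA and NTL array than on any other array.

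Arg1 encodes arginase 1, which splits arginine into ornithine and urea and so competes with nitric oxide synthase for arginine. Its level in control replicates 1 to 4 was 0.02, −4.05, −3.14 and −2.48, the second of these not well above background. In LFA it was 4.27, 3.72, 2.53 and 1.94, and in NTL 4.02, 2.68, 3.66 and 4.26. Every LFA and NTL array thus lay above every control array, and control 1 lay apart from the other controls. In SFA the 4 values were −3.49, 2.72, 0.20 and −1.45, and in NTS −2.81, −2.48, 5.19 and 3.90. The short-fiber groups were split, each with arrays as low as control and arrays as high as the long-fiber groups. The log2 change was 6.07 ± 1.56 (SE) in NTL, or 67.1-fold (adjusted p = 0.0238), and 5.53 ± 1.56 in LFA (adjusted p = 0.0518), which missed the threshold. In SFA it was 1.91 (95% confidence interval −1.38 to 5.19) and in NTS 3.36 (0.08 to 6.65, adjusted p = 0.9999), so a large change was not detectable against this spread. The order of the means was NTL 3.65, LFA 3.12, NTS 0.95, SFA −0.51 and control −2.41, and only LFA and NTL differed from control by groups that did not overlap.

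Arg1 is also one of the abundant transcripts of hepatocytes, and its high values in the short-fiber groups fell on arrays with liver RNA. The summed liver level was 2427 on SFA 2, 5143 on NTS 3 and 4151 on NTS 4, where Arg1 was at 2.72, 5.19 and 3.90. Control 1, with the highest Arg1 of the controls, had a liver level of 356. On NTS 1 and NTS 2, with liver levels of 24.5 and 11.1, Arg1 lay within the control range. The long-fiber arrays showed a different combination. Arg1 was at 3.72 on LFA 2, 1.94 on LFA 4 and 2.68 on NTL 2, where the liver levels were 8.14, 6.61 and 19.4, within the range of control 2 to 4 (10.1 to 19.6) or below it. Without the 5 arrays of high liver level, the Arg1 change was 5.24 in LFA (adjusted p = 0.0158), 6.07 in NTL (0.00103) and −0.24 in NTS. With the log2 liver level as a covariate on all 20 arrays it was 4.49 in LFA (0.0288), 5.00 in NTL (0.00887) and 1.80 in NTS. Leaving out the liver-rich arrays kept only LFA 2 and LFA 4 of the LFA group and removed no NTL or control array. The covariate lowered the change in both groups, from 5.53 in LFA and from 6.07 in NTL with no covariate. The part of liver RNA in these changes was not tested.

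**Figure D2:**
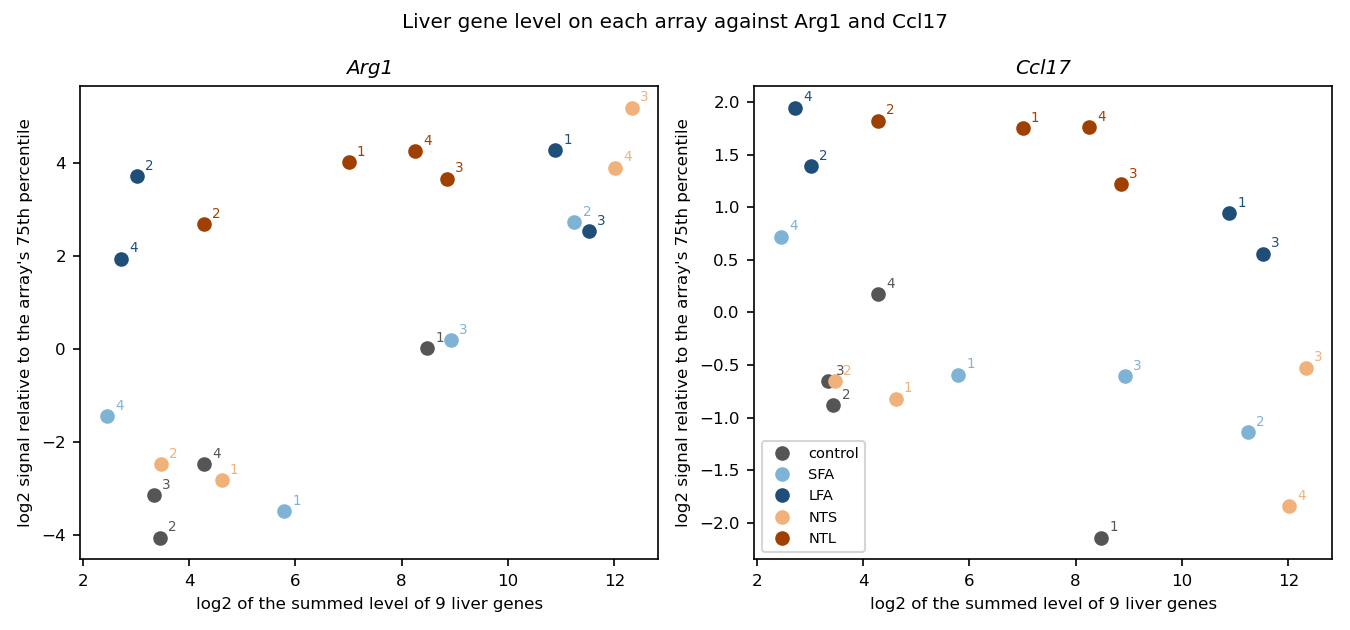
Arg1 and Ccl17 (vertical axes, log2 intensity relative to the 75th percentile of the array) against the log2 summed level of 9 liver genes (horizontal axis) on 20 arrays, colored by group and numbered by replicate. Arg1 is high on SFA 2, NTS 3 and NTS 4 at the right, and also on LFA 2, LFA 4 and NTL 2 at the left, at 1.94 to 3.72, whereas Ccl17 is low on those short-fiber arrays.

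Chi3l3 (also called Ym1) and Chi3l1 encode secreted proteins of the chitinase family that bind sugars and have no chitinase activity. Chi3l3 was at −1.54, −0.36, 1.76 and 0.15 in control, at 2.003, 2.14, 1.06 and 2.20 in LFA and at 3.43, 3.76, 0.60 and 3.04 in NTL. The SFA values were 2.02, −2.09, −1.22 and −0.38, and the NTS values −1.07, −2.10, −2.13 and 0.21. Control 3 and SFA 1 reached the range of the LFA group, and NTL 3 fell below it, so neither long-fiber group was clear of control. The change was 1.85 ± 0.86 in LFA (adjusted p = 0.198) and 2.71 ± 0.86 in NTL (0.0604), and neither passed. Neutrophils also store Chi3l3, and the summed level of 10 neutrophil genes was highest on control 3 (97.4) and SFA 1 (92.3), the same 2 arrays. On LFA 1 to 4, with Chi3l3 at 2.003, 2.14, 1.06 and 2.20, that level was 83.3, 84.0, 39.4 and 41.7. On NTL 1, 2 and 4, where Chi3l3 was highest of all, it was 17.6, 52.0 and 25.5. All these levels lay within the control range of 12.2 to 97.4. The part of neutrophils in the Chi3l3 values was not tested.

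Chi3l1 was steadier. It was at −2.05, −2.24, −1.41 and −1.80 in control, −0.27, −0.59, −0.91 and −0.47 in LFA, and −0.19, −0.65, −0.65 and −0.67 in NTL. In SFA it was at −1.01, −1.36, −2.75 and −1.63, and in NTS at −1.16, −1.81, −1.37 and −2.61. The lowest long-fiber value, −0.91, lay just above the highest of the other 12 arrays, −1.01. Such a separation held for 2 of the 8 tested members (Chi3l1 and Il4ra) and for 1.42% of 36768 probes measured on all arrays. The change was 1.31 ± 0.35 in LFA, or 2.48-fold (adjusted p = 0.0422), and 1.33 ± 0.35 in NTL, or 2.52-fold (0.0272). In SFA and NTS it was 0.19 (−0.55 to 0.93) and 0.14 (−0.60 to 0.88), intervals whose upper ends lie below a 2-fold rise. Without the 5 liver-rich arrays the LFA change was as large (1.34) and its adjusted p was 0.0791.

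Retnla encodes a secreted resistin-like protein (RELMα, or Fizz1). It was at 5.50, 7.11, 5.52 and 5.72 in control, 6.19, 6.84, 6.20 and 6.44 in LFA and 7.38, 7.18, 6.75 and 6.76 in NTL. Control 2 stood well above the other controls, as high as the NTL arrays, and the other 3 controls lay below every LFA and NTL array. The SFA values were 6.54, 6.16, 6.00 and 6.22, and the NTS values 5.62, 5.48, 6.01 and 4.56. The change was 0.45 ± 0.35 in LFA (adjusted p = 0.441) and 1.06 ± 0.35 in NTL, or 2.08-fold (0.0725), so Retnla did not pass in either. Without control 2 the NTL change was 1.44 (adjusted p = 0.00893). Control 2 was also the dimmest array and had the highest summed level of 7 adipocyte genes, 1368 against 614 to 902 in the other controls and 298 to 600 in NTL. Fat tissue expresses Retnla, and its part in that value was not tested.

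Il4ra encodes the receptor chain itself. Its brighter probe was at −0.72, −0.65, −0.87 and −0.35 in control, −0.15, 1.45, −0.09 and 0.91 in LFA, and 0.66, 0.73, 0.15 and 0.83 in NTL. In SFA it was at −0.85, −0.47, −0.84 and −0.97 and in NTS at −0.86, −1.36, −0.30 and −0.82. The LFA group fell into 2 values close to control and 2 well above it, while the NTL group was compact. The change was 1.18 ± 0.32 in LFA, or 2.27-fold (adjusted p = 0.045), and 1.24 ± 0.32 in NTL, or 2.37-fold (0.0245). The 2 low LFA arrays, LFA 1 and LFA 3, were the liver-rich ones of that group. Without the 5 liver-rich arrays the LFA change was 1.83 (adjusted p = 0.00353), a larger value that follows from keeping only the 2 high ones. The dimmer probe, nearer the start of the transcript, was at −0.58 in LFA (adjusted p = 0.448) and 0.34 in NTL (0.711), as log2 changes, and its values overlapped in all groups, from −5.71 to −2.78. The rise of Il4ra is thus a reading of 1 of its 2 probes. Averaging the probes removed it from the genes that passed in both groups.

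Mgl2 encodes a lectin of macrophages and dendritic cells that binds galactose sugars. It was at 5.15, 6.21, 5.73 and 5.71 in control, 5.91, 6.79, 5.99 and 5.97 in LFA, and 6.65, 6.66, 6.83 and 6.66 in NTL. The NTL arrays lay above every control array and closer together than any other group of any member (SD 0.09). The SFA arrays, at 5.85, 5.83, 5.70 and 5.54, and the NTS arrays, at 5.91, 5.70, 5.66 and 5.39, lay inside the control range. The NTL change was 0.999 ± 0.24, or 1.9991-fold (adjusted p = 0.0175), just under the 2-fold limit, and without control 2 it was 1.17 (0.00759). The LFA change was 0.47 ± 0.24 (0.247).

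Ccl17 and Ccl22 encode the ligands of the chemokine receptor CCR4, carried by T helper 2 and regulatory T cells, and Ccl24 (eotaxin-2) a ligand of CCR3 on eosinophils. Ccl17 gave the lowest adjusted p of the members in both long-fiber groups. It was at −2.14, −0.88, −0.65 and 0.17 in control, 0.94, 1.39, 0.56 and 1.95 in LFA, and 1.75, 1.82, 1.22 and 1.76 in NTL. Every LFA and NTL array lay above every control array, with 1 short-fiber array, SFA 4 at 0.72, above the lowest LFA value. The other SFA values were −0.59, −1.14 and −0.61, and the NTS values −0.82, −0.65, −0.52 and −1.84. Ccl17 rose 4.24-fold in LFA (log2 change 2.09 ± 0.47, adjusted p = 0.0195) and 5.72-fold in NTL (2.51 ± 0.47, 0.0031). Without the 5 liver-rich arrays the LFA change was 2.55 (0.0187). In SFA and NTS the change was 0.47 (−0.51 to 1.45) and −0.08 (−1.06 to 0.90). The means ran from NTL 1.64 and LFA 1.21 to SFA −0.40, control −0.88 and NTS −0.96, with no clear step among the last 3.

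Ccl22 was well above background on 2 arrays only, NTL 1 and NTL 3, at −5.02 and −5.01. NTL 2 and NTL 4 read −7.34 and −5.78, and the arrays of the other groups ran from −7.53 (SFA 1) to −5.22 (SFA 4), none of them well above background. It was not tested, and no fold is given since its mean in NTL lay below the lowest signal that the control arrays could measure.

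Ccl24 was at 0.45, 2.01, 0.95 and 0.86 in control, 1.73, 2.13, 1.89 and 2.78 in LFA, and 2.32, 2.71, 1.93 and 2.20 in NTL. Control 2 again stood above the other controls and overlapped both long-fiber groups. In SFA the values were 1.15, 0.72, 0.97 and 1.23, and in NTS 0.86, 0.70, 1.53 and 1. Ccl24 rose 2.33-fold in NTL (1.22 ± 0.32, adjusted p = 0.0249) and was at 1.06 ± 0.32 in LFA (0.0615), or 1.38 without control 2 (0.0153).

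**Figure D3:**
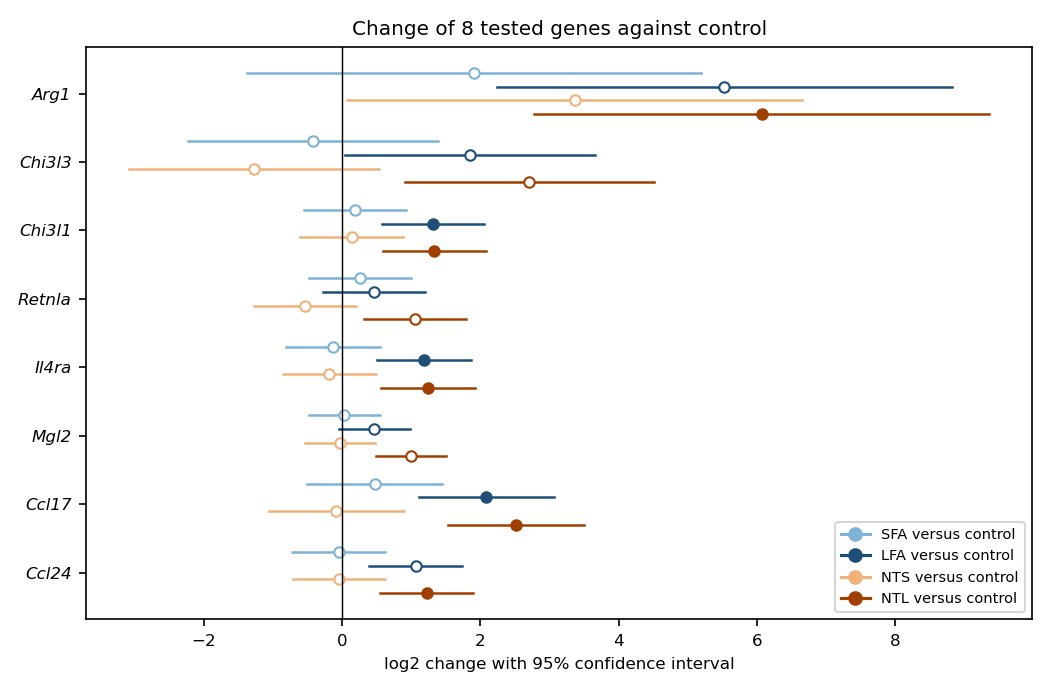
Log2 change of the 8 tested genes against control (horizontal axis, vertical line at 0) in LFA, NTL, SFA and NTS, with 95% confidence intervals from the limma fit to 20 arrays. Filled symbols passed the adjusted p and the 2-fold limit, and they lie only in LFA (3 genes) and NTL (5 genes).

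Counted by arrays instead of by the model, 4 of the 8 genes in LFA (Arg1, Chi3l1, Il4ra and Ccl17) and 5 in NTL (the same 4 and Mgl2) had every array above every control array, where 4.57% and 6.37% of 36768 probes did. In SFA and NTS none did. The arrays were spread over 3 slides, and the slides that held both groups gave like directions. Within slides 1, 2 and 3, LFA exceeded control in 8, 7 and 8 of the 8 genes, the exception being Retnla at −0.11, and within slides 2 and 3 NTL exceeded control in all 8. When the fit took slide as a block, 2 genes rose in LFA (Chi3l1 and Ccl17) and 3 in NTL (Arg1, Chi3l1 and Ccl17). Dropping 1 array at a time left 0 to 5 genes called in LFA, with 0 called without control 1, LFA 2 or LFA 4, and 2 to 7 in NTL, with 2 called without control 1, NTL 1 or NTL 4. Over all probes the same omissions gave 467 to 2682 calls in LFA and 1399 to 3078 in NTL. The calls in LFA, of the members and over all probes, thus depend on single arrays.

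Long and short fibers of 1 material were compared at the same dose. SFA and LFA came from the same amosite, whereas NTS and NTL have different sources, so for nanotubes length and source cannot be told apart. All 8 genes had a higher mean in LFA than in SFA and in NTL than in NTS, by a median of 1.22 and 1.51 (all probes −0.17 and −0.25). For nanotubes 7 of 8 passed, all but Arg1, where 4.92% of all probes rose. Ccl17 differed most firmly, at 6.05-fold (2.60 ± 0.47, adjusted p = 0.00185), and Chi3l3 by the largest fold, 15.8-fold (3.98 ± 0.86, 0.00715). Retnla followed at 3.03-fold (0.00816), Il4ra at 2.69-fold (0.0098), Ccl24 at a log2 change of 1.27 (0.0189), Chi3l1 at 1.19 (0.0428) and Mgl2 at 1.03 (0.0127). In these 7 genes every NTL array also lay above every NTS array, as for 7.67% of probes. Arg1, at 2.71 ± 1.56 (adjusted p = 0.294), had NTS 3 and NTS 4 as high as NTL arrays, and without the 5 liver-rich arrays it was at 6.30 (0.00344). When only the liver-rich NTS 3 and NTS 4 were left out, 6 genes passed: Arg1, Chi3l3, Retnla, Il4ra, Ccl17 and Ccl24. Chi3l1 and Mgl2 then no longer passed.

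Slide and length overlapped in part for the nanotubes. NTS lay on slides 1 and 2 and NTL on slides 2 and 3, and with slide as a block only Ccl17 passed (adjusted p = 0.031), while the other 7 had adjusted p values of 0.058 to 0.328. Within slide 2, which held 1 NTL and 2 NTS arrays, all 8 genes were higher in NTL, from 0.84 for Mgl2 to 6.67 for Arg1.

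For asbestos none of the 8 passed between LFA and SFA, where 1.03% of all probes rose. An unadjusted p under 0.05 was reached by 6 of the 8, and by 4640 of all 36920 tested probes. Il4ra came nearest, at 1.31 ± 0.32 (adjusted p = 0.0565), followed by Ccl24 at 1.11 (0.121), Ccl17 at 1.61 (0.128) and Chi3l1 at 1.13 (0.178). In Chi3l1, Il4ra, Mgl2 and Ccl24 every LFA array lay above every SFA array, as for 3.15% of 36768 probes. Within slides 2 and 3, LFA exceeded SFA in 7 and 8 of the 8 genes. Without the liver-rich arrays the brighter Il4ra probe passed (2.06, adjusted p = 0.00559). That fit keeps only LFA 2 and LFA 4 of the LFA group, at 1.45 and 0.91, the higher ones for this probe. The dimmer Il4ra probe was at −0.11 with all arrays (adjusted p = 0.961).

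**Figure D4:**
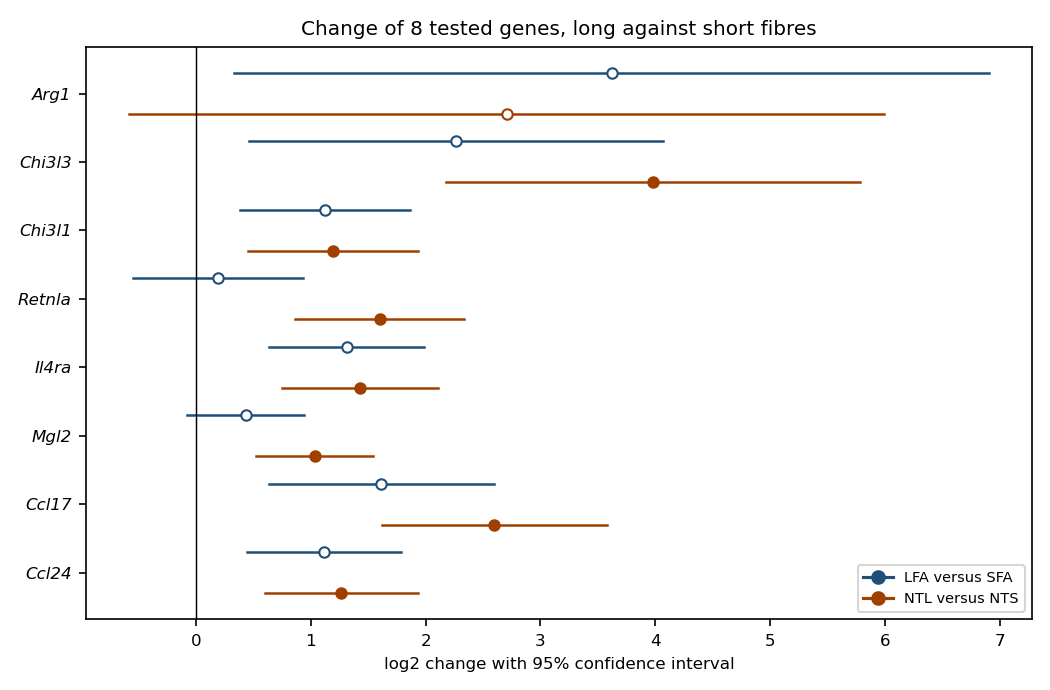
Log2 difference of long minus short fibers (horizontal axis, vertical line at 0) for the 8 tested genes, for asbestos (LFA minus SFA) and nanotubes (NTL minus NTS), with 95% confidence intervals. All 16 differences lie above 0, and filled symbols, which passed the test, are the 7 nanotube differences other than Arg1.

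Between the materials nothing passed. NTL exceeded LFA in all 8 means, by a median of 0.48 against 0.03 over all probes, with 0% of probes called. Within slides it did so in 7 of 8 genes on slide 2, with Arg1 at −0.25, and in 4 of 8 on slide 3, with Il4ra at −0.88. The nearest was Mgl2 at 0.53 (0.02 to 1.04, unadjusted p = 0.0413, adjusted 0.9999), and for Chi3l1 and Il4ra the differences were 0.02 (−0.72 to 0.76) and 0.06 (−0.61 to 0.74). NTS and SFA differed in no gene (0% of probes), the smallest p being that of Retnla at −0.81 (adjusted p = 0.843). As the doses differ, these values do not rank the materials. The effect of length also did not differ detectably between nanotubes and asbestos (0% of probes), the smallest p being that of Retnla at 1.41 (0.36 to 2.45, unadjusted p = 0.011, adjusted 0.9998).

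Of 20 genes of the IL-4 and IL-13 pathway, 3 rose in LFA and 3 rose and 1 fell in NTL (medians 0.26 and 0.75). Il4 and Il13, the ligands, were not well above background on any control array. Il4 was on all LFA and NTL arrays, at least 1.86-fold higher in LFA (adjusted p = 0.0364) and at least 1.40-fold in NTL (0.110), which did not pass. Il13 was on 3 of 4 NTL arrays, at least 1.46-fold higher (0.00372), and on 2 of 4 LFA arrays, where its mean lay below the lowest signal measurable in control and no fold is given. No SFA or NTS array had Il13 well above background, so it was tested only through the long-fiber groups. The same holds for Il4, which outside those groups was well above background only on SFA 1, NTS 3 and NTS 4. Il4 in LFA and Il13 in NTL were counted as risen from control values not well above background. Their lower bounds are under 2-fold, so a 2-fold rise was not shown for either. Irf4, a transcription factor of alternative activation, rose by 1.39 in LFA (0.00838) and 1.65 in NTL (0.0012), and Socs1, a feedback inhibitor of the receptor's kinases, by 1.11 (0.0334) and 1.22 (0.0131). Stat6 was at 0.30 (0.412) and 0.28 (0.485). Pparg, which works with STAT6 in macrophages and is also the master regulator of fat cells, fell by 1.19 in NTL (0.0123), as did adipocyte genes: 3 of 7 fell, among them Adipoq by 1.39 (0.036).

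Other markers of alternative activation rose in part. Of 16, 8 rose in LFA and 9 in NTL (medians 1.39 and 1.504), and 4 and 11 rose between long and short fibers of asbestos and nanotubes. Clec7a, a receptor for fungal sugars, rose by 3.09 (adjusted p = 0.000657) and 3.58 (9.55e-05), and Msr1, a scavenger receptor, by 3.13 (0.00187) and 3.01 (0.00119). Fn1, fibronectin, rose by 2.33 (0.0204) and 2.38 (0.00999), and Mrc1, the mannose receptor, by 1.92 (0.0111) and 2.25 (0.0018). The cytokine gene Il10, below background in control, rose in LFA by at least 2.02-fold (0.00556) and in NTL by at least 2.52-fold (0.000814). Among the genes that did not pass, Cd163, a scavenger receptor, was at −1.10 in LFA and 0.03 in NTL, Tgm2 at −0.08 and −0.07, Alox15 at −0.14 and 0.31, and Tgfb1 at −0.05 and 0.30.

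The families of the members gave few calls. Of 5 tested chitinase and resistin relatives, none rose in LFA, and in NTL Chi3l4, the close copy of Chi3l3 known as Ym2, rose by 3.09 (adjusted p = 0.00125), measured against a control group with 1 of 4 arrays well above background, while Retn fell by 1.95 (0.00473). Chi3l4 was between −2.74 and −1.44 on the NTL arrays and at or below −4.22 on all other arrays, and it was at least 7.43-fold higher in NTL than in NTS. Chi3l3 and Chi3l4 are similar in sequence and their probes may share signal. Among 10 arginine genes 1 rose, the arginine transporter Slc7a2 in NTL (2.12, 0.0413), and Nos2 was at −0.55 in LFA (0.175) and −0.27 in NTL (0.539). Among 5 tested receptors and ligands related to the chemokines, the CCL17 receptor Ccr4 rose in NTL (2.21, 0.0273), also with 1 of 4 control arrays well above background. That array, control 4, was at −4.45, beside −4.20 to −2.67 in NTL, so the change is set against a level mostly not measured. Outside LFA and NTL, Ccr4 was well above background only on control 4 and SFA 1, so it was tested only through the long-fiber groups.

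Some genes of classical activation, the response to interferon-γ and bacterial products, rose as well. Of 14 tested, 5 rose in LFA and 10 in NTL (medians 1.18 and 1.49), including Il6 by 3.70 (adjusted p = 0.000622) and 4.06 (0.000131), Il1b by 3.74 (0.00831) and 3.38 (0.00792) and Ptgs2 by 2.58 (0.005) and 2.53 (0.00255). Il6 was well above background on 1 of 4 control arrays, so its change is set against a level mostly not measured. Cxcl10 rose by 1.99 in NTL (0.0245). The summed level of the list went the other way, from 450 to 778 in control to 272 to 421 in LFA and 333 to 426 in NTL, with its bright gene Cxcl11 at −0.71 (0.0927) and −0.55 (0.182). None of the 6 gene lists had a call in SFA or NTS.

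**Figure D5:**
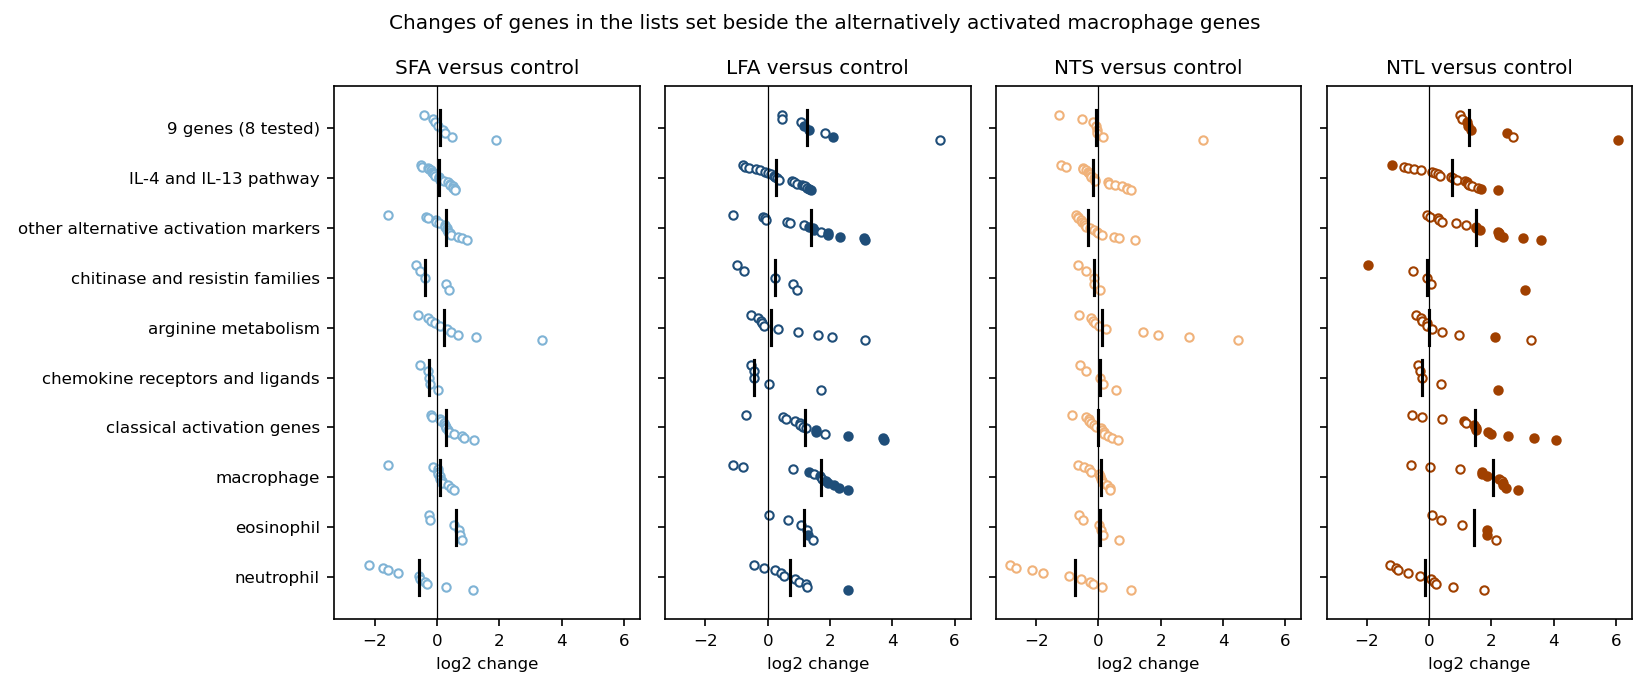
Log2 change against control (horizontal axis) of every tested gene of the members, the 6 related lists and the macrophage, eosinophil and neutrophil lists, in panels for SFA, LFA, NTS and NTL. Each point is a gene, filled where it passed the test, and black bars are medians, which for the other alternative activation markers are 1.39 in LFA and 1.504 in NTL.

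Most macrophage genes rose in the same groups. Of 12, 7 rose in LFA and 8 in NTL (medians 1.72 and 2.06), with Emr1 (F4/80) at 2.13 (adjusted p = 0.00567) and 2.46 (0.000906) and Cd68 at 1.95 (0.00446) and 2.39 (0.000384). The summed macrophage level was 78.7 to 122 in control, 142 to 258 in LFA and 224 to 264 in NTL, against 87.2 to 142 in SFA and 72.7 to 140 in NTS. Itgam, also of this list, was at −0.80 (0.358) and −0.60 (0.539). The changes of Emr1 and Cd68 exceeded those of Chi3l1, Il4ra, Mgl2 and Ccl24 in the same groups, and the members' level per macrophage was not measured. Of 4 genes of resident cavity macrophages, 2 rose in each long-fiber group, with Timd4 at 1.35 (0.0408) in LFA and Gata6 at 1.11 (0.0168) in NTL.

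Among the other cell types, 1 of 6 tested eosinophil genes rose in LFA and 2 in NTL, and their summed level was 2.50 to 6.58 in control, 8.58 to 10.3 in LFA and 6.44 to 17.6 in NTL. Of the granule genes that define eosinophils, Prg2 was at 0.66 (adjusted p = 0.565) in LFA and 0.09 (0.959) in NTL, and Epx was too dim to test, while the eosinophil ribonuclease Ear1 rose by 1.30 (0.0403) and 1.87 (0.00292). Their part in the members' changes was not tested. Of 6 tested dendritic cell genes 0 rose in LFA and 3 in NTL, Flt3 by 1.04 (adjusted p = 0.0446), with Zbtb46 at −0.78 (0.179), and their summed level was 2.77 to 5.20 in control and 8.65 to 17.2 in NTL. Dendritic cells are a source of Ccl17, Ccl22 and Mgl2, and their part in these genes was not tested. Of 10 neutrophil genes 1 rose in LFA and 0 in NTL, with Ly6g at 0.22 and 0.77 and S100a8 at 1.01 and 0.06, and of 7 T cell genes 0 and 1, with Cd3e at −0.07 and 0.18 and Cd3d at 1.28 and 1.34, none of these passing. Of 9 liver, 5 mast cell and 6 mesothelial genes none passed in LFA or NTL, though the median liver gene was at 2.33 and 2.50, with wide spread. Of 5 fibroblast genes 1 and 3 rose (Col1a1 by 1.67 and Col3a1 by 1.64 in NTL), and of 8 muscle genes 1 fell in each, with Acta1 at −1.01 in LFA.

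Over the 20 arrays the members did not move as 1 block. The highest correlations between them were 0.843 for Ccl17 with Ccl24, 0.832 for Il4ra with Ccl24 and 0.81 for Retnla with Mgl2, while Arg1 correlated at 0.209 (Retnla) to 0.639 (Il4ra) with the others. These r values describe 20 arrays in 5 groups that share group differences and array brightness. The genes most like Arg1 over the arrays were F7 (0.984), Alcam (0.965) and Sdc1 (0.94), of which F7 encodes a clotting factor made in liver. F7 was at 0.07, 8e-04 and −0.33 on LFA 2, LFA 4 and NTL 2, where the liver levels were 8.14, 6.61 and 19.4. In control F7 was between −4.75 and −2.65. Most like Ccl17 were Tbxas1 (0.929), Folr2 (0.926) and Mucl1 (0.919), most like Ccl24 S100a4 (0.954), Gusb (0.952) and Bok (0.948), and most like Mgl2 Clec4a1 (0.948), Lin52 (0.944) and Celf4 (0.941). For Il4ra they were Sbno2 (0.955), Gpr77 (0.948) and Rnf207 (0.944), and for Retnla Eid1 (0.911), Rgs10 (0.891) and Fam18a (0.883). Chi3l1 was followed most closely by Cyp11a1 (0.924), C130050O18Rik (0.904) and AY208318 (0.9), Chi3l3 by Plekhg4 (0.941), Cd209e (0.898) and Ncaph (0.891), and the dim Ccl22 by Pik3ap1 (0.846), Clec4b1 (0.83) and Epcam (0.777).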

How the data were processed

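RNA from the diaphragms of 20 mice was hybridized by the authors to single-color 60K mouse arrays, read with Agilent Feature Extraction 10.7.3.1. The deposited signal of a spot is a background-subtracted intensity, and the authors also deposited a table of normalized log2 values as group means, used here only as an alternative without errors. Control and outlier spots (92 to 204 per array) were left out, spots of a probe were averaged into 55681 probes, and the log2 of each array's 75th percentile was subtracted from log2 intensity. A probe was tested when well above background on at least 4 of 20 arrays (36920 probes). The linear model of limma 3.58.1, with a mean per group over all arrays, was run in R 4.3.3 with the package data.table (1.17.8), and p values were Benjamini-Hochberg adjusted over all tested probes. Files were read and figures drawn in Python 3.11.15 with numpy 2.4.6, pandas 2.3.3 and matplotlib 3.10.9. The steps were tested on simulated data.

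Groups were taken from the sample labels, which give 4 replicates per group, and the study's methods give 4 mice per group. The number of arrays limits the precision. Liver RNA on 5 arrays and the overlap of slide with NTS and NTL are further limits. A gene is represented by its brightest tested probe. The text names the 9 members, from each pathway list up to 4 called genes with the largest mean change and Il4, Il13, Stat6, Nos2 and Mrc1, from each cell type list its first 2 genes, and the 3 genes most correlated with each member. Some genes were named outside this rule, among them Itgam, Ear1, Cd163, Tgm2, Alox15, Tgfb1 and Cxcl11. Members and lists were chosen with earlier results of these data known. A fold against a group not well above background is a lower bound, computed from the lowest signal well above background on each array. Alternatives were quantile normalization, normexp background (offset 50), other filters, the mean of probes, slide and replicate number as blocks, fits to the compared groups, array weights, the methods' unequal-variance test and leaving out arrays. A liver covariate and leaving out 5 liver-rich arrays were added after seeing the data.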

Additional observations from a re-analysis of the deposited data

Results flagged for a closer look

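In 5 of 45 combinations of gene and group (11.11%), 1 array lay far from the other 3, where chance gives about 1 in 20. Chi3l1 on NTL 1 was at −0.19, above the others at −0.67 to −0.65. Retnla on control 2 was at 7.11, above 5.50 to 5.72. Mgl2 on LFA 2 was at 6.79, above 5.91 to 5.99, and on NTL 3 at 6.83, above 6.65 to 6.66. Ccl17 on NTL 3 was at 1.22, below 1.75 to 1.82. No test of a difference between effects of the 2 materials passed in a member.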

How the results depend on the processing

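In SFA versus control, NTS versus control, NTL versus LFA, NTS versus SFA and the length effect of nanotubes versus asbestos, 0 members were called under every alternative run. The count called in LFA versus control (3) was 1 with no filter, with a replicate block or with only the compared groups fitted, 5 without NTS replicates 3 and 4 or with array weights, and 0 by the methods' unequal-variance test. The 1 gene was Ccl17 with no filter or a replicate block, and Arg1 with only the compared groups fitted. Chi3l1, Il4ra and Ccl17 were not called in LFA under 17, 20 and 5 of 33 alternatives. Arg1, not called in the main fit, was called under 13 of 32. In NTL versus control (5) it was 3 with slide as a block, 8 with array weights or the liver covariate, and 0 by the methods' test. In NTL versus NTS (7) it was 1 with slide as a block and 0 by the methods' test. There Chi3l1 and Mgl2 were not called under 20 and 8 of 33 alternatives. In LFA versus SFA (0) it was 2 with normexp background, 3 with array weights, and 1 with the filter on all arrays, without NTS replicates 3 and 4, with the liver covariate or without the liver-rich arrays. In the test over any fibre group (5) it was 3 with slide as a block, 2 by the methods' test and 8 with array weights or the liver covariate. The methods' test without adjustment, at p under 0.05 and 2-fold, called 4 members in LFA, 6 in NTL, 3 between LFA and SFA and 7 between NTL and NTS. The share of all probes passing this unadjusted rule is not given, so these 4 counts have no background beside them and carry no conclusion. Leaving out 1 array gave 0 to 5 members in LFA, 2 to 7 in NTL and 0 to 1 between LFA and SFA. It gave 5 to 7 between NTL and NTS and 3 to 7 over any fibre group. The highest LFA and NTL counts came without NTS 4. In the same order, these omissions gave 467 to 2682, 1399 to 3078, 155 to 531, 1717 to 5436 and 1413 to 3901 calls over all probes. Over all probes, LFA versus control gave 1462 calls, 5204 with array weights, 922 with slide as a block and 8 by the methods' test, NTL versus control 2511, 4485, 1325 and 494, and NTL versus NTS 2797, 8349, 769 and 399. The replicate block changed no other count by over 1.5 times, and the numbers did not pair the arrays (correlations of same-numbered arrays −0.68 to 0.69, 4 of 20 arrays closest to their own number).

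Signs turned in changes that were not called, for short fibers against control as listed here, and between the materials, where Chi3l1 in NTL versus LFA ran from −0.10 (without NTL 1) to 0.11 and Il4ra from −0.58 (without the liver-rich arrays) to 0.49. Mgl2 in SFA was −0.046 with slide as a block and −8e-04 without the liver-rich arrays, and Mgl2 in NTS was 0.0444 with slide as a block, 0.11 without NTS 3 and 4 (as without the liver-rich arrays), 0.16 with array weights and 0.0724 with the liver covariate. Ccl24 in SFA was 0.0027 with quantile normalization, 0.17 with array weights, 0.0432 with the liver covariate and 0.0484 without the liver-rich arrays, and in NTS 0.0923 with the liver covariate. Ccl17 in NTS was 0.14 without NTS 3 and 4 and 0.32 with the liver covariate, Arg1 in NTS −0.24 without NTS 3 and 4, Il4ra in NTS 0.08 as the mean of its probes, Chi3l1 in SFA −0.37 with array weights and Chi3l3 in SFA 0.14 without the liver-rich arrays. Leaving out 1 array moved Mgl2 between −0.15 and 0.20 in SFA and −0.22 and 0.14 in NTS, Ccl24 between −0.26 and 0.26 in SFA and −0.25 and 0.27 in NTS, Chi3l3 in SFA between −1.23 and 0.17, Ccl17 in NTS between −0.50 and 0.27, and Chi3l1 between −0.0394 and 0.54 in SFA and −0.0551 and 0.43 in NTS. The cause was not tested. With 4 arrays per group the intervals span about 1 log2 unit for the steadier members and over 6 for Arg1, and Ccl22 was limited by its signal over background.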
